A study of Chlorella sorokiniana with 6 samples.

Results

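The transcripts described here are those that MapMan, a plant ontology assigned by the Mercator annotation tool, places in the BIN, or functional class, for posttranslational modification of proteins. Members were all transcripts of this BIN or a child of it with at least 60 counts summed over the 6 libraries, which gave 352 of the 505 transcripts of the BIN and of the 18310 in the whole table. Of the rest of the BIN, 115 had no count and 38 had fewer than 60. The members nearest to this limit held 60 and 65 counts, and the nearest outside it 57 and 58. The 352 members came from 213 components of the assembly, a component being a set of contigs that share sequence, and 241 of them shared a component with another member.

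*Chlorella sorokiniana*, a unicellular green alga, was grown for 7 days in the mixotrophic condition, with 100 µmol photons of light and 2% glucose, or in the normal condition, with 10 µmol photons and no added glucose. RNA of whole cultures was sequenced in 3 libraries per condition. The study's methods describe independent triplicates, but the paper's table of reads lists only replicates 1 and 2 of each condition. Whether the 3 libraries came from separate cultures is not shown by the labels. Light and glucose were changed together, so their parts cannot be told apart. The labels give every library a strain number of its own, from NIES-2168 in normal replicate 1 to NIES-2173 in mixotrophic replicate 3, while the study's methods name NIES-2168 alone, and strain therefore cannot be told apart from library here. In RNA of whole cultures, fewer transcripts per cell and a different make-up of cells cannot be told apart.

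Protein kinases transfer a phosphate group from ATP to serine, threonine or tyrosine residues of other proteins, and protein phosphatases remove it. In green algae and plants these enzymes carry signals of energy state, nutrients, calcium, stress and cell cycle, and a few in the chloroplast adjust the light-harvesting antenna to light. Most of them are set by activators, subunits and phosphorylation of the enzyme itself, so that transcript level and activity are separate quantities. Other enzymes of the class repair damaged amino acids or attach lipid and sugar groups to proteins.

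The names used below come from the best *Arabidopsis* match that the deposited descriptions give, and the roles are those known in *Arabidopsis* unless another organism is named. By these names 232 members were protein kinases, 52 were counted as protein phosphatases or their subunits, and 41 were other annotations. The 52 included 6 calcineurin-like metallophosphoesterases, a name that does not by itself state a protein phosphatase. A further 22 had no description here and could not be placed, and 5 were kept apart because of their levels in replicate 1, as described last. Among the kinases, 3 were placed by the name of their child BIN alone. The class name held for most but not all of the described members. The 41 other annotations included a chaperonin, a nucleotide sugar transporter, diacylglycerol kinases, phospholipase-like proteins and a prenyltransferase, which act on other molecules or fold proteins.

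Libraries held 2535461 to 4444858 counts, and the members took 2.41 to 2.52% of the counts in mixotrophic and 2.87 to 3.33% in normal libraries. Normal replicate 1 stood apart from the other normal libraries. Over the 347 members outside the group kept apart, its log2 levels differed from normal replicates 2 and 3 by root mean squares of 1.03 and 0.979, against 0.235 to 0.285 between mixotrophic libraries and 0.261 between normal replicates 2 and 3. Between a mixotrophic and a normal library the same measure was 1.05 to 1.1. Normal replicate 1 thus lay nearly as far from its own condition as the conditions lay from each other. It lay at least 2-fold above the mean of normal replicates 2 and 3 in 54 of these members and at least 2-fold below it in 19. Outside the transcripts low in replicate 1, replicates 2 and 3 of a condition differed by little more than counting noise, with chi-square values of 1.21 in mixotrophic and 1.39 in normal per degree of freedom. Mixotrophic replicate 1 gave 1.54 and 1.67 against mixotrophic replicates 2 and 3. Normal replicate 1 gave 51.1 and 53.7 against normal replicates 2 and 3. All 6 libraries were therefore compared, and the change over replicates 2 and 3 alone (4 libraries) is given beside each named transcript's value. The spread between libraries of a condition, as edgeR's common coefficient of variation, was 4.64% over these 4 libraries and 35.5% over 6. The adjusted p-values and calls over 4 libraries thus rest on near repeats and measure little beyond counting noise. Outside the transcripts low in replicate 1, the 3 mixotrophic libraries were near repeats too. There the spread over 6 libraries came mainly from 1 library, normal replicate 1, and the p-values over 6 rest on it. The change of the whole component, with the counts of all its transcripts summed, is given where it ended a call, turned a direction or moved a called value by over 1.5 times. A component can also hold transcripts outside the class.

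Levels are CPM, the counts scaled to a library total of 1000000, always in the order of replicates 1, 2 and 3. They are not divided by transcript length, so that an order of CPM between transcripts also depends on their lengths. Changes are log2 fold changes of mixotrophic over normal, with their standard errors, from edgeR's quasi-likelihood test. The Benjamini-Hochberg adjustment of p was made over all 12318 transcripts tested, and an adjusted p under 0.05 made a call. All 352 members passed the filter on low counts.

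More members were downregulated than upregulated in the mixotrophic condition. Of the 352 members, 31 (8.81%) were called higher and 83 (23.6%) lower, whereas 13.3% of all transcripts tested were called higher and 15.2% lower. The median change of the members was -0.16, and that of all transcripts tested was -0.04. The share called lower was thus above that of the whole table, and the share called higher below it. In 58 members (16.5%) every mixotrophic library lay above every normal one, and in 118 (33.5%) every mixotrophic library lay below, where all transcripts gave 24.5% and 24.1%. All 114 members called were among those without overlap between the conditions.

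The share of members called lower was above that of all transcripts in each of the other fits below. With the replicate number as a block, 25 members (7.1%) were called higher and 58 (16.5%) lower, against 9.97% and 10.5% of all transcripts. Over the 4 libraries, where 349 members were tested, 102 (29.2%) were called higher and 131 (37.5%) lower, and 28.6% of all transcripts were called higher and 29.0% lower. The share called higher over 4 libraries was therefore near that of the whole table, and the share called lower was above it. Since transcripts of one component can share reads, counts were also summed per component. Then 18 of the 213 components (8.45%) were called higher and 52 (24.4%) lower, against 14.1% and 16.8% of all components.

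Kinases and phosphatases had more members called lower than higher, and the other annotations more called higher than lower. Of the 232 protein kinases, 13 (5.6%) were called higher and 61 (26.3%) lower, with a median change of -0.22. Of the 52 phosphatases, 6 (11.5%) were called higher and 12 (23.1%) lower, with a median of -0.07. Of the 41 other annotations, 11 (26.8%) were called higher and 6 (14.6%) lower, with a median of 0.22. Differences between the classes were not tested. Over all transcripts 13.3% were called higher and 15.2% lower over 6 libraries, and 28.6% and 29.0% over 4. The counts of families below are to be read beside these shares. Of the 22 members with no description here, 1 was called higher and 4 lower. With the replicate block the phosphatases had 4 called higher and 4 lower.

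**Figure D1:**
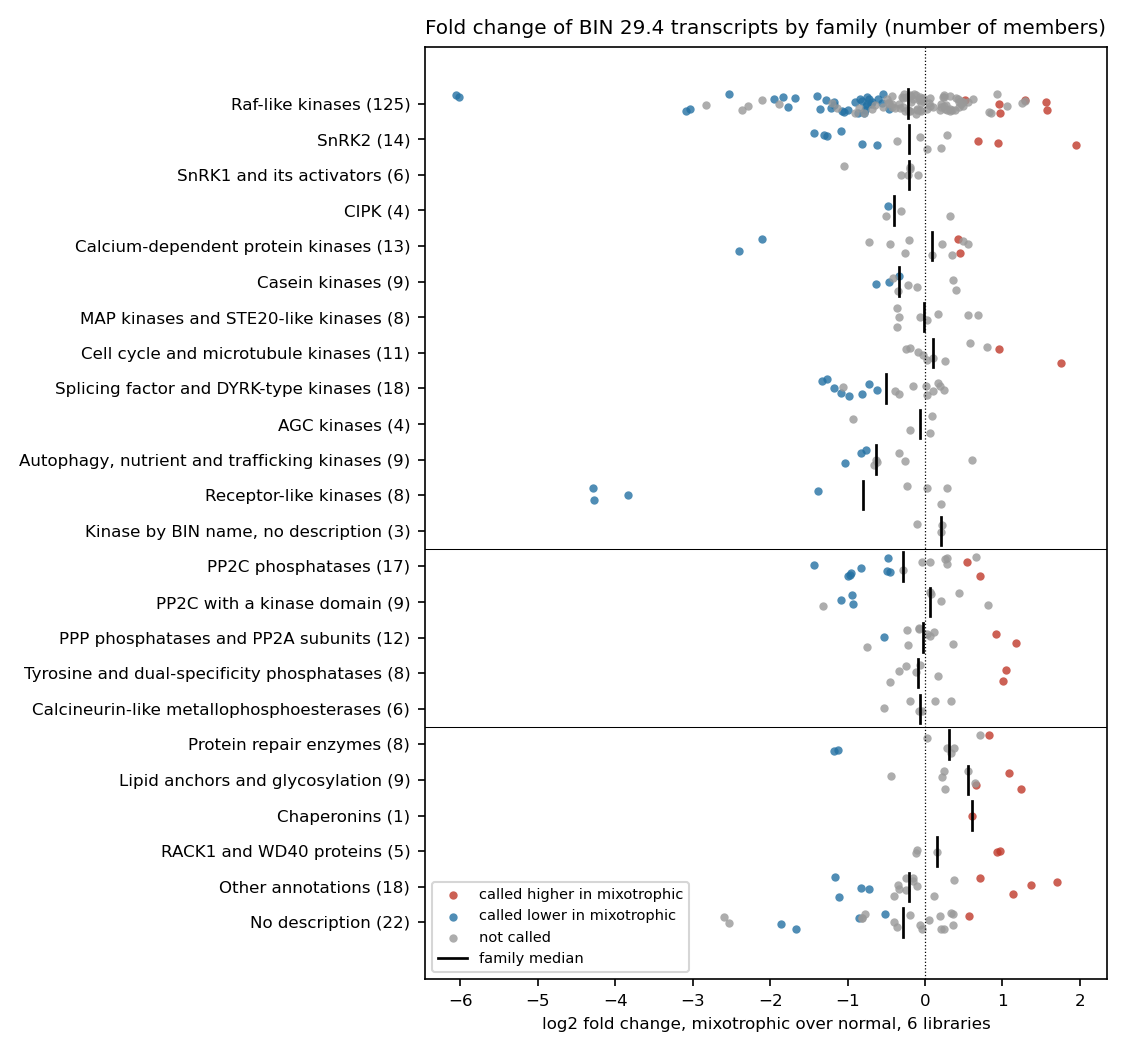
Each point is 1 of the 347 members outside the group kept apart, placed by its log2 fold change of mixotrophic over normal over 6 libraries (horizontal axis) within its family (vertical axis, number of members in brackets); red and blue points were called higher and lower, grey points were not called, and black bars are family medians. Lines separate kinases, phosphatases and the remaining members. The Raf-like kinases hold 34 of the 61 kinases called lower, 27.2% of the family against 26.3% of all kinases, with changes reaching -6.06.

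Summed over the class, the protein kinases held 15587, 15295 and 15294 CPM in mixotrophic libraries, against 22825, 18368 and 18668 CPM in normal libraries. The phosphatases summed to 4169, 4201 and 4157 CPM in mixotrophic and to 5000, 4901 and 5052 CPM in normal libraries. The other annotations held 2599, 2634 and 2541 CPM in mixotrophic and 2624, 2552 and 2419 CPM in normal libraries. Kinase and phosphatase sums were lower in every mixotrophic than in every normal library, and the sums of the other annotations overlapped. Among the phosphatases only the PP2C family was lower in this way, at 2197, 2226 and 2186 CPM in mixotrophic and 3066, 2916 and 3039 CPM in normal libraries. The sums of the other phosphatase families overlapped, as in the PPP phosphatases and PP2A subunits, at 1089, 1102 and 1087 CPM against 1072, 1097 and 1104 CPM. With 3 libraries against 3, an exact permutation test of such a sum cannot give a p below 0.1, and none was run.

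**Figure D2:**
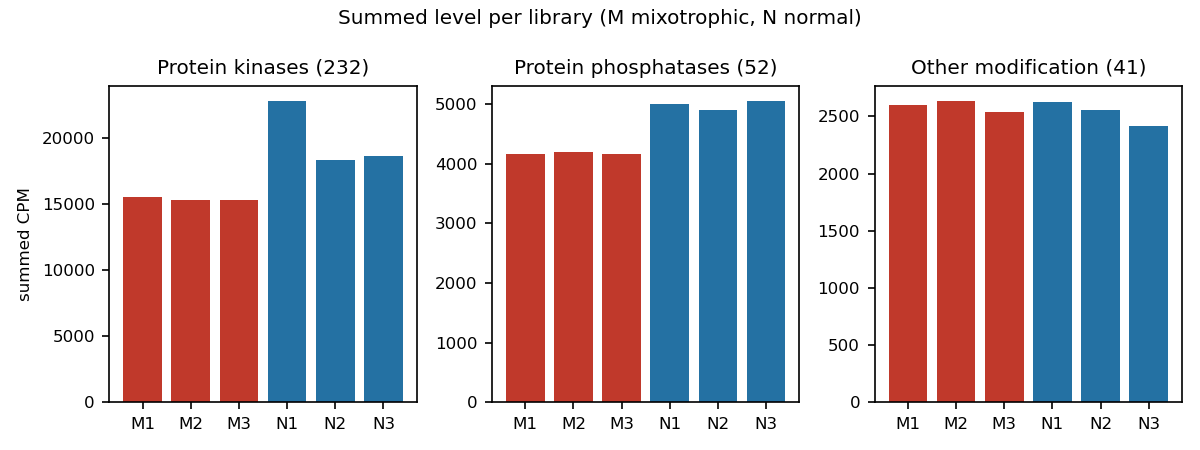
Bars give the CPM summed over the members of each class in each library, with mixotrophic replicates 1 to 3 (M1 to M3) in red and normal replicates 1 to 3 (N1 to N3) in blue; each panel has its own axis from 0. Normal replicate 1 has the highest kinase sum, 22825 CPM, and the 6 bars of the other annotations overlap between conditions.

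Raf-like kinases made up the largest family. They are related to the mitogen-activated protein (MAP) kinase kinase kinases and include CTR1, which represses ethylene signalling, EDR1, a negative regulator of defence, and HT1, which acts in the response of stomata to CO2. Of the 125 members from 69 components, 6 (4.8%) were called higher and 34 (27.2%) lower, with a median of -0.22. These shares were near those of all kinases, 5.6% and 26.3%. Over 4 libraries 39 (31.7%) were called higher and 43 (35%) lower, against 28.6% and 29.0% of all transcripts, with a median of -0.04. The lean of this family towards lower calls was thus weaker without replicate 1. The strongest falls of all members were found here.

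The deepest falls were in kinases with a PB1 domain, a protein-protein interaction domain, on a single component. Transcript g17298 had 2.59, 1.97 and 3.08 CPM in mixotrophic libraries, against 60.4, 227 and 226 CPM in normal libraries. The paired transcript g17294 was at 2.37, 2.7 and 3.64 CPM in mixotrophic and at 62.3, 249 and 255 CPM in normal libraries. The conditions did not overlap in either, and normal replicate 1 was the lowest of the normal libraries in both. The fold changes were -6.06 ± 0.65 for g17298 (adjusted p = 0.00255; -6.51 over 4 libraries) and -6.02 ± 0.677 for g17294 (adjusted p = 0.0029; -6.33 over 4). Their component, of 76 transcripts, gave -3.22 (adjusted p = 0.00324). Another transcript of the component, g17301, changed less, with 14.4, 16 and 14.3 CPM in mixotrophic and 91.2, 142 and 148 CPM in normal libraries (-3.09 ± 0.223, adjusted p = 0.000925; -3.27 over 4 libraries). How reads were divided between these near copies is uncertain.

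Transcripts with the same *Arabidopsis* match went in both directions. Of its 16 members from 9 components, 3 were called higher and 8 lower. Among those called higher, g11400 stood at 55.6, 64.6 and 51 CPM in mixotrophic and at 19.3, 19.2 and 19.7 CPM in normal libraries (1.56 ± 0.133, adjusted p = 0.00144; also 1.56 over 4). Likewise g11259 had 35.6, 31.9 and 34.2 CPM in mixotrophic and 13, 14.2 and 14.4 CPM in normal libraries (1.29 ± 0.129, adjusted p = 0.0021; 1.18 over 4). All 6 libraries followed the condition in both transcripts. The component of g11400, of 46 transcripts, was called in the opposite direction, with a change of -0.42 (adjusted p = 0.00511).

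The described kinase highest in CPM was also a Raf-like one. Transcript g16318, annotated only as a protein kinase, had 141, 132 and 135 CPM in mixotrophic libraries, against 998, 1175 and 1181 CPM in normal libraries. Each mixotrophic library was far below each normal one, and the change was -3.04 ± 0.106 (adjusted p = 0.000309; -3.16 over 4 libraries). It was 1 of 21 members with this match, of which only 1 other was called, g2993, named after its values were seen, at 136, 135 and 128 CPM in mixotrophic and 351, 222 and 220 CPM in normal libraries (-0.99 ± 0.208, adjusted p = 0.0184; -0.77 over 4). The component of g2993 was not called (-0.22, adjusted p = 0.162). The other 19 were not called, and 17 of the 21 had a negative change. Over 4 libraries 5 of the 21 were called higher and 4 lower.

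Of the 8 members matching CTR1, 5 were called lower and none higher. The largest change was in g11591, with 19.2, 18.9 and 16.3 CPM in mixotrophic and 65.3, 117 and 132 CPM in normal libraries (-2.53 ± 0.289, adjusted p = 0.003; -2.84 over 4 libraries). Normal replicate 1 again lay between the mixotrophic libraries and the remaining normal ones. The component of g11591 was not called (-0.31, adjusted p = 0.119). Over 4 libraries 2 of these members were called higher and 5 lower.

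Kinases with a PAS domain, a fold that senses light, redox state or small ligands in many proteins, were named after their values were seen, since none passed the rule for naming. Of 10 members matching one such *Arabidopsis* kinase, 5 were called lower and none higher, all on 1 component. Its transcript highest in CPM, g11959, had 54.5, 47.7 and 49.3 CPM in mixotrophic and 117, 127 and 157 CPM in normal libraries (-1.4 ± 0.148, adjusted p = 0.00243; -1.58 over 4). A PAS domain kinase with another match, g4187, held 117, 110 and 111 CPM in mixotrophic and 267, 218 and 225 CPM in normal libraries (-1.07 ± 0.118, adjusted p = 0.00274; -1.03 over 4). The conditions did not overlap in either.

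Among the few Raf-like kinases that rose were 2 with an ACT-like annotation, named for a domain that binds amino acids and other small molecules. Transcript g17226 had 54.3, 58 and 53.3 CPM in mixotrophic and 25.4, 17.1 and 13.1 CPM in normal libraries (1.57 ± 0.249, adjusted p = 0.00777; 1.88 over 4). Transcript g10570, with another match and named after its values were seen, had 561, 559 and 574 CPM in mixotrophic and 260, 301 and 317 CPM in normal libraries (0.95 ± 0.104, adjusted p = 0.00272; 0.85 over 4). Neither overlapped between the conditions, and the component of g10570 was not called (0.41, adjusted p = 0.0647).

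**Figure D3:**
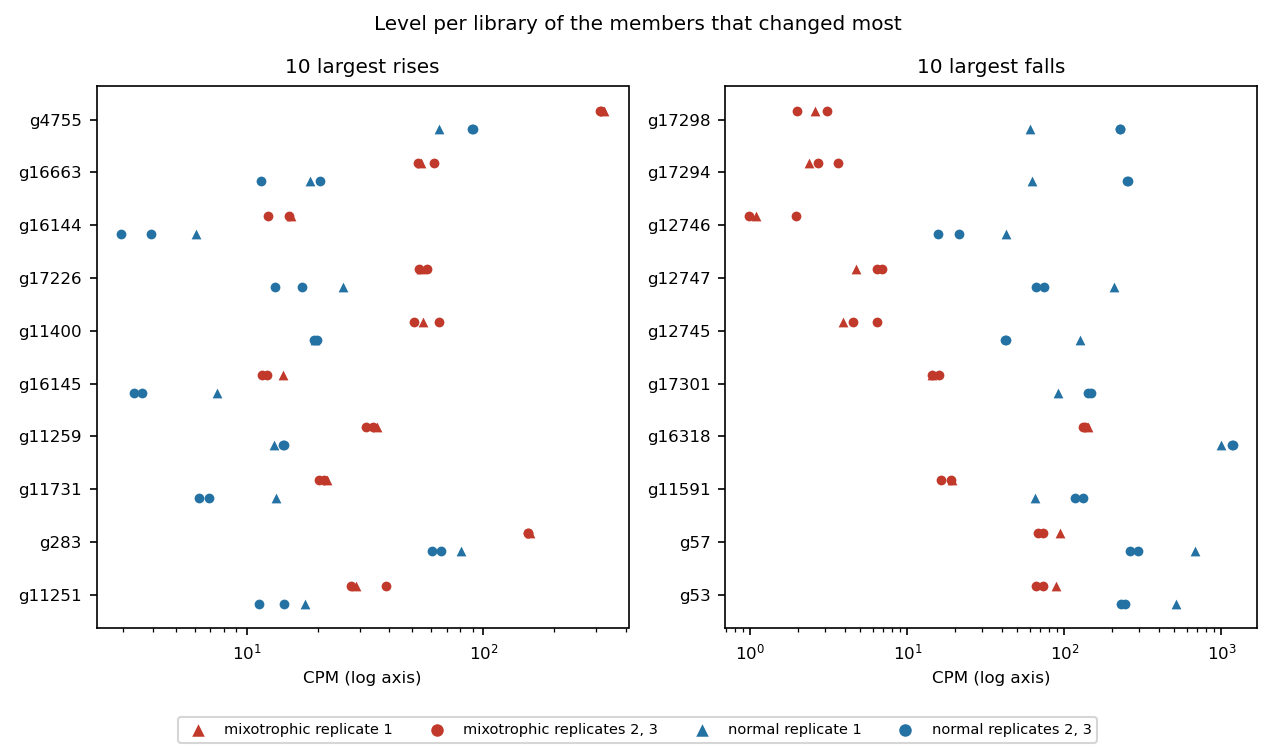
Levels in CPM (horizontal log axis) of the 10 members with the largest rises (left panel) and the 10 with the largest falls (right panel) among called members, by transcript (vertical axis), with mixotrophic libraries in red just above normal libraries in blue and replicate 1 of each condition as a triangle. The conditions are separate in each of the 20 transcripts, and blue triangles lie away from the blue circles in many of them, as in g57 at 683 CPM.

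Several Raf-like kinases were called only over the 4 libraries, some with the opposite sign of change over 6. The transcript g11597, in the same component as g11591, had 170, 159 and 161 CPM in mixotrophic libraries and 513, 51.6 and 54.1 CPM in normal libraries. Its change was -0.34 ± 0.914 over 6 libraries (adjusted p = 0.849) and 1.57 over 4 (adjusted p = 2.03e-14). The EDR1-like g5362 had 39.4, 31 and 37 CPM in mixotrophic and 77.4, 5.83 and 5.24 CPM in normal libraries, and its changes were 0.25 ± 1.01 over 6 (adjusted p = 0.908) and 2.59 over 4 libraries (adjusted p = 2.21e-10). In both, normal replicate 1 was the highest of all libraries and the other normal libraries were the lowest. These 2 were named after their values were seen, for the distance of that replicate.

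Over the 344 members tested in both fits outside the group kept apart, 114 were called over 6 and 233 over 4 libraries. All 114 were called over 4 libraries in the same direction, and none in the opposite direction. Of the 119 called over 4 libraries only, normal replicate 1 lay within the range of the mixotrophic libraries in 25, and 7 had a change of the opposite sign over 6 libraries. What set normal replicate 1 apart was not tested.

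**Figure D4:**
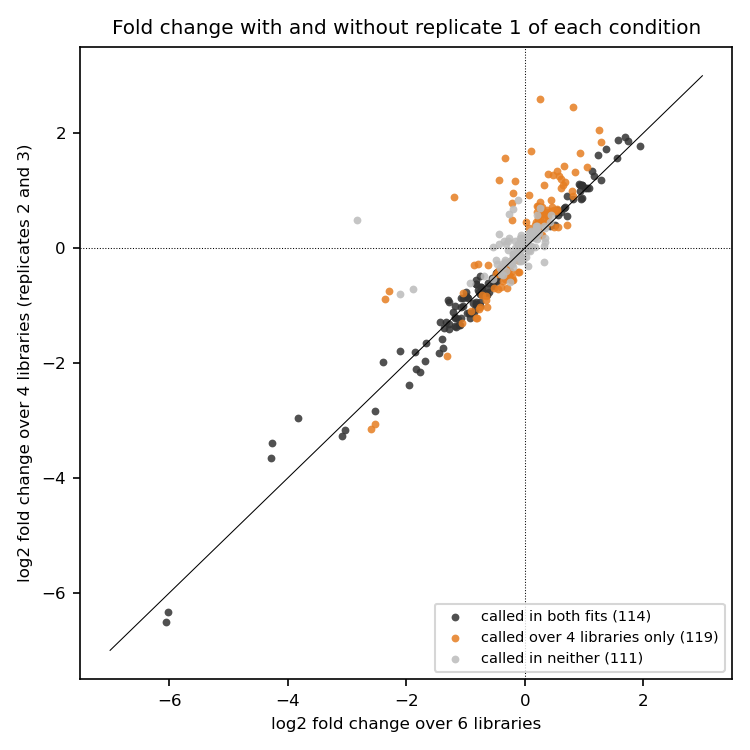
Each point is 1 of 344 members, with its log2 fold change of mixotrophic over normal over 6 libraries (horizontal axis) and over replicates 2 and 3 only (vertical axis); dark points were called in both fits, orange points over 4 libraries only and pale points in neither, and the diagonal marks equal values. The 114 dark points keep 1 sign in both fits, and orange points above the diagonal are transcripts in which normal replicate 1 was high.

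The SNF1-related kinases are the plant and algal relatives of the energy sensor SNF1 of yeast and AMPK of animals. SnRK1 is active when sugar and energy are low, SnRK2 kinases act in osmotic stress, abscisic acid and, in *Chlamydomonas*, sulfur deprivation, and CIPK kinases are switched by calcium sensors of the CBL type. None of the 6 transcripts of SnRK1 and its activators was called over 6 libraries by edgeR or by DESeq2, and 2 had an unadjusted p under 0.05 in edgeR. All 6 had a negative change, from -1.05 to -0.09, with a median of -0.21, and 5 were called lower over 4 libraries.

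The SnRK1 catalytic chain g7561 had 134, 128 and 134 CPM in mixotrophic and 77.4, 174 and 169 CPM in normal libraries. Its near copy g7560 stood at 131, 117 and 127 CPM in mixotrophic and at 79.1, 177 and 174 CPM in normal libraries. In both, the mixotrophic libraries lay between normal replicate 1 and the remaining normal ones, and the changes were -0.09 ± 0.309 (adjusted p = 0.895; -0.41 over 4 libraries, adjusted p = 3.83e-05) and -0.2 ± 0.311 (adjusted p = 0.708; -0.55 over 4, adjusted p = 6.99e-07). A further catalytic chain, g16979, had 65.7, 68.3 and 63.9 CPM in mixotrophic and 77.2, 83.7 and 84.5 CPM in normal libraries. The groups did not overlap there, but the change of -0.31 ± 0.0983 missed the threshold (adjusted p = 0.0622) and passed it over 4 (-0.37, adjusted p = 0.00393).

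The activating subunit SNF4, g6512, had 105, 91.2 and 104 CPM in mixotrophic and 119, 110 and 112 CPM in normal libraries (-0.19 ± 0.107, adjusted p = 0.24; -0.22 over 4, adjusted p = 0.0449). The GRIK kinases, which phosphorylate SnRK1, gave -1.05 ± 0.392 for g13006 (adjusted p = 0.0966; -0.78 over 4, adjusted p = 0.00412) and -0.22 ± 0.141 for g11017 (adjusted p = 0.3; -0.25 over 4, adjusted p = 0.09). Only g6512 of these 3 was free of overlap between the conditions.

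SnRK2 kinases changed more and in both directions, with 3 of 14 called higher and 6 lower. The largest rise of all members was in g4755, with 325, 311 and 315 CPM in mixotrophic libraries, against 64.8, 89.5 and 90.8 CPM in normal libraries (1.95 ± 0.158, adjusted p = 0.00135; 1.77 over 4 libraries). A neighbour in its component, g4754, was the SnRK2 member highest in CPM and had 267, 283 and 262 CPM in mixotrophic and 312, 247 and 234 CPM in normal libraries (0.03 ± 0.136, adjusted p = 0.916; 0.16 over 4, adjusted p = 0.0506). The mixotrophic libraries were all above the normal ones in g4755 and among them in g4754. Their component, of 18 transcripts, was not called (0.36, adjusted p = 0.0879).

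On another component g5602 rose, with 217, 246 and 240 CPM in mixotrophic and 126, 126 and 115 CPM in normal libraries (0.94 ± 0.104, adjusted p = 0.00274; 1.0 over 4). Its neighbour g5600 had 114, 120 and 122 CPM in mixotrophic and 76.3, 76.6 and 69.1 CPM in normal libraries (0.68 ± 0.1, adjusted p = 0.00612; 0.72 over 4). The last transcript there, g5601, was low, at 23.5, 23.1 and 19.3 CPM in mixotrophic and 22.6, 22.1 and 12.5 CPM in normal libraries, and was not called (0.21 ± 0.26, adjusted p = 0.619; 0.32 over 4, adjusted p = 0.25).

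The 6 SnRK2 members that fell all matched the same *Arabidopsis* kinase as g5600. They came in pairs from 3 components. Transcript g17013 had 18.5, 11.6 and 17.9 CPM in mixotrophic and 59.3, 37.5 and 32.8 CPM in normal libraries (-1.43 ± 0.302, adjusted p = 0.0186; -1.28 over 4), and g17009 of the same component gave -1.08 ± 0.245 (adjusted p = 0.024; -0.86 over 4). The pair g17429 and g17428 had changes of -1.3 ± 0.279 (adjusted p = 0.0195; -0.9 over 4) and -1.27 ± 0.276 (adjusted p = 0.0207; -0.93 over 4). Normal replicate 1 was the highest library in these 4 transcripts, at 59.3 to 150 CPM. The component of g17429 and g17428, of 9 transcripts, was called in the opposite direction (0.38, adjusted p = 0.0149), and that of g17013 and g17009 changed by -0.82 (adjusted p = 0.00292).

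The pair g4866 and g4865 was low, at 7.86 to 10.1 CPM in mixotrophic and 13.4 to 18.7 CPM in normal libraries. Their changes were -0.82 ± 0.196 (adjusted p = 0.0272; -0.98 over 4) and -0.62 ± 0.177 (adjusted p = 0.0476; -0.69 over 4), and neither was called with the replicate block (adjusted p = 0.0624 and 0.112 from edgeR). On the component of g17429, transcript g17421 had 216, 236 and 211 CPM in mixotrophic and 208, 161 and 172 CPM in normal libraries and was not called (0.29 ± 0.13, adjusted p = 0.146; 0.4 over 4, adjusted p = 5.69e-05). Of the remaining SnRK2 members, g2589 was called lower over 4 libraries only (-0.58, adjusted p = 5.67e-05; -0.36 ± 0.177 over 6, adjusted p = 0.182), and g12040 was called in neither (-0.06 ± 0.279, adjusted p = 0.931; 0.23 over 4, adjusted p = 0.378).

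**Figure D5:**
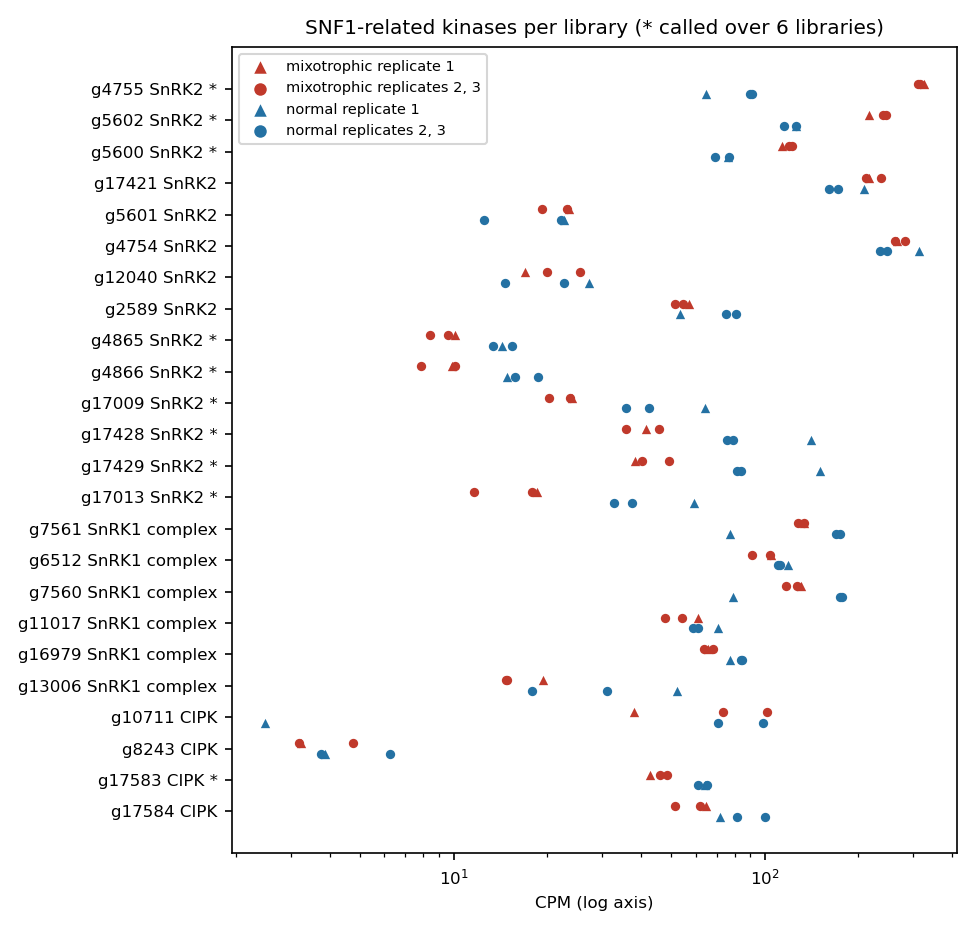
Levels in CPM (horizontal log axis) of the 24 members annotated as SnRK2, SnRK1 or its activators, or CIPK, outside the group kept apart (vertical axis), with mixotrophic libraries in red just above normal libraries in blue, replicate 1 as a triangle, and an asterisk after transcripts called over 6 libraries. The mixotrophic points of g4755 lie at 311 to 325 CPM, to the right of its normal points, while those of g17013 lie to the left of theirs.

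Of the 4 CIPK transcripts, 1 was called lower. This was g17583, at 42.9, 46 and 48.5 CPM in mixotrophic and 64.5, 65.4 and 61 CPM in normal libraries (-0.48 ± 0.106, adjusted p = 0.0221; -0.44 over 4), which was not called with the replicate block (adjusted p = 0.0879 from edgeR). Its neighbour g17584 had 64.7, 61.9 and 51.6 CPM in mixotrophic and 71.9, 100 and 81.6 CPM in normal libraries (-0.51 ± 0.167, adjusted p = 0.0678; -0.69 over 4, adjusted p = 1.71e-05). The low g8243 was not called (-0.31 ± 0.368, adjusted p = 0.596; -0.4 over 4, adjusted p = 0.442), nor was the CIPK6-like g10711, whose level in normal replicate 1 stood far from the rest and is given with the group kept apart.

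Calcium-dependent protein kinases carry calcium-binding EF hands on the same chain as the kinase. Of 13 members, 2 were called higher and 2 lower. The highest in CPM, g57, had 93.3, 73.2 and 68.1 CPM in mixotrophic libraries, against 683, 261 and 292 CPM in normal libraries (-2.4 ± 0.416, adjusted p = 0.0103; -1.99 over 4). Its near copy g53 had 88.2, 72.5 and 66.2 CPM in mixotrophic and 510, 229 and 243 CPM in normal libraries (-2.11 ± 0.354, adjusted p = 0.00921; -1.79 over 4). Normal replicate 1 was the highest library in both, and the remaining normal libraries were also above every mixotrophic one.

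The 2 that rose did so by less. Transcript g8926 had 70.1, 75.2 and 69.8 CPM in mixotrophic and 48.8, 58.3 and 50.8 CPM in normal libraries (0.45 ± 0.115, adjusted p = 0.0347; 0.4 over 4). Transcript g14855 had 54.5, 54.6 and 52.1 CPM in mixotrophic and 39.7, 36.2 and 43.6 CPM in normal libraries (0.43 ± 0.115, adjusted p = 0.0385; 0.39 over 4). Neither was called with the replicate block (adjusted p = 0.0915 and 0.12 from edgeR), nor were their components (0.41, adjusted p = 0.0674, for that of g8926 and 0.32, adjusted p = 0.334, for that of g14855).

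Casein kinase 2 is an abundant tetramer of catalytic alpha and regulatory beta subunits. Of the 9 casein kinases, 3 were called lower and none higher, and none was called with the replicate block. The beta subunit g10469 had 37.1, 36.4 and 30.6 CPM in mixotrophic and 44.4, 63.7 and 53.4 CPM in normal libraries (-0.63 ± 0.172, adjusted p = 0.0403; -0.81 over 4). Its near copy g10475 had 37.1, 38.3 and 37.8 CPM in mixotrophic and 45.5, 57.9 and 53.7 CPM in normal libraries (-0.47 ± 0.128, adjusted p = 0.04; -0.57 over 4). Both fell over 6 libraries, and neither was called with the replicate block (adjusted p = 0.0763 and 0.102 from edgeR).

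The alpha subunit g12628 had 64.2, 65.4 and 66.7 CPM in mixotrophic and 59.3, 49.6 and 39.3 CPM in normal libraries (0.4 ± 0.167, adjusted p = 0.125; 0.56 over 4, adjusted p = 0.000423), and its near copy g12626 gave 0.36 ± 0.151 (adjusted p = 0.13; 0.41 over 4, adjusted p = 0.00833). The alpha transcripts did not overlap between the conditions but passed the test over 4 libraries only. The remaining beta transcripts, g10478 and g10472, were at 1.96 to 6.25 CPM and not called (adjusted p = 0.617 and 0.721, with changes of -0.34 and -0.28 over 4).

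Kinases of the cell cycle included the largest rise of any kinase after g4755. WEE1, g16663, which holds back entry into mitosis by phosphorylating cyclin-dependent kinases, had 54.3, 61.9 and 52.7 CPM in mixotrophic libraries, against 18.5, 20.4 and 11.5 CPM in normal libraries (1.75 ± 0.232, adjusted p = 0.00456; 1.87 over 4). The cyclin-dependent kinase g15177, of the mitotic B type, had 11.6, 14.3 and 11.8 CPM in mixotrophic and 7.44, 4.58 and 7.21 CPM in normal libraries (0.96 ± 0.26, adjusted p = 0.0402; 1.09 over 4; adjusted p = 0.0846 with the replicate block). Both were above the normal range in every mixotrophic library. The component of g15177 was not called (0.08, adjusted p = 0.734). None of the 11 members was called lower. The highest in CPM, the NIMA-related kinase g13239, had 84.7, 82.8 and 82.7 CPM in mixotrophic and 95.1, 84.1 and 86.8 CPM in normal libraries (-0.09 ± 0.0994, adjusted p = 0.564; -0.07 over 4, adjusted p = 0.569).

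Kinases of splicing factors and the related DYRK type were all lower where they were called over 6 libraries. These enzymes phosphorylate the serine- and arginine-rich proteins of the spliceosome. Of 18 members, 8 were called lower and none higher, with a median of -0.5. Over 4 libraries 2 were called higher and 11 lower. The LAMMER kinase AME3, g5006, had 17.2, 13.8 and 14.6 CPM in mixotrophic and 46, 37.1 and 31.8 CPM in normal libraries (-1.33 ± 0.189, adjusted p = 0.00549; -1.29 over 4).

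Of the same family, g8642, which matches a kinase of serine- and arginine-rich proteins, had 35.1, 31.7 and 36.2 CPM in mixotrophic and 62.3, 77.5 and 78 CPM in normal libraries (-1.08 ± 0.137, adjusted p = 0.00402; -1.22 over 4). The highest in CPM, g9954, had 163, 171 and 172 CPM in mixotrophic and 301, 254 and 280 CPM in normal libraries (-0.73 ± 0.104, adjusted p = 0.0057; -0.67 over 4). No mixotrophic library reached the normal range in any of these transcripts.

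Among kinases of autophagy, nutrient supply and trafficking, 3 of 9 were called lower and none higher. GCN2, g4269, which phosphorylates translation initiation factor eIF2 when amino acids run short, had 63.6, 49.9 and 53 CPM in mixotrophic and 86.8, 103 and 92.4 CPM in normal libraries (-0.76 ± 0.138, adjusted p = 0.0118; -0.94 over 4). A kinase related to ATG1, which starts autophagy, g4429, had 74.8, 65.4 and 67.6 CPM in mixotrophic and 187, 115 and 124 CPM in normal libraries (-1.04 ± 0.209, adjusted p = 0.0162; -0.87 over 4). Neither overlapped between the conditions. The VPS15-like g11044, a partner of the lipid kinase VPS34, had 367, 377 and 366 CPM in mixotrophic and 373, 167 and 185 CPM in normal libraries, and was called over 4 libraries only (1.05, adjusted p = 1.36e-13; 0.61 ± 0.318 over 6, adjusted p = 0.207).

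The receptor-like kinases, membrane kinases with an outer ligand domain in land plants, had 4 of 8 members called lower and none higher. The lectin-type transcripts of 1 component fell most. Transcript g12747 had 4.74, 6.88 and 6.45 CPM in mixotrophic libraries, against 208, 74.1 and 65.5 CPM in normal libraries (-4.27 ± 0.558, adjusted p = 0.00437; -3.4 over 4). Its near copies were g12746, at 0.983 to 1.96 CPM in mixotrophic and 15.7 to 42.4 CPM in normal libraries (-4.29 ± 0.522, adjusted p = 0.00353; -3.65 over 4), and g12745, at 3.88 to 6.39 CPM in mixotrophic and 41.9 to 125 CPM in normal libraries (-3.83 ± 0.556, adjusted p = 0.00587; -2.95 over 4).

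Every mixotrophic library was below every normal one in these 3 transcripts, and normal replicate 1 was the highest. The receptor-like kinase highest in CPM, the GASSHO1-like g10100, did not follow them, with 287, 266 and 301 CPM in mixotrophic and 407, 176 and 158 CPM in normal libraries (0.2 ± 0.375, adjusted p = 0.763; 0.74 over 4, adjusted p = 1.11e-09).

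No member of the 8 MAP kinases and STE20-like kinases, nor of the 4 AGC kinases, was called over 6 libraries by edgeR or by DESeq2. Of these, 2 MAP or STE20-like kinases and 1 AGC kinase had an unadjusted p under 0.05 in edgeR. The MAP kinase g4548 had 133, 134 and 131 CPM in mixotrophic and 163, 123 and 128 CPM in normal libraries (-0.06 ± 0.136, adjusted p = 0.828; 0.06 over 4, adjusted p = 0.583). The AGC kinase g15178 had 136, 134 and 136 CPM in mixotrophic and 108, 132 and 142 CPM in normal libraries (0.09 ± 0.13, adjusted p = 0.679; -0.05 over 4, adjusted p = 0.647). Both overlapped between the conditions.

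Turning to the phosphatases, the PP2C family, magnesium-dependent enzymes that work as single chains, had 2 of 17 members called higher and 8 lower, against none higher and 3 lower with the replicate block. The chloroplast phosphatase TAP38/PPH1, g11088, which removes phosphate from the light-harvesting antenna of photosystem II and so reverses state transitions, had 142, 156 and 153 CPM in mixotrophic libraries, against 113, 82 and 80.3 CPM in normal libraries. All mixotrophic libraries were above all normal ones, and its change was 0.71 ± 0.163 (adjusted p = 0.0249; 0.91 over 4). With the replicate block it was not called (adjusted p = 0.0545). The DBP1-like g3919 had 144, 142 and 133 CPM in mixotrophic and 116, 84.1 and 87.5 CPM in normal libraries (0.54 ± 0.151, adjusted p = 0.0439; 0.66 over 4; adjusted p = 0.0704 with the block).

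Of the PP2C transcripts that fell, the highest in CPM was g2582, with 423, 408 and 419 CPM in mixotrophic and 1023, 576 and 612 CPM in normal libraries (-0.83 ± 0.233, adjusted p = 0.045; -0.55 over 4; adjusted p = 0.0535 with the replicate block). A pair from 1 component fell with smaller p-values. Transcript g14792 had 68.8, 63.4 and 62.5 CPM in mixotrophic and 156, 114 and 110 CPM in normal libraries (-0.97 ± 0.164, adjusted p = 0.00972; -0.85 over 4), and g14790 gave -0.95 ± 0.163 (adjusted p = 0.00983; -0.86 over 4). Normal replicate 1 was the highest library in all of these.

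PP2C proteins that also carry a kinase domain had 3 of 9 members called lower and none higher, and 1 called lower with the replicate block. The called transcripts shared 1 *Arabidopsis* match. Transcript g17447 had 14, 14 and 14 CPM in mixotrophic and 20.7, 34.6 and 34.7 CPM in normal libraries (-1.09 ± 0.233, adjusted p = 0.0195; -1.33 over 4). On another component g15781 had 28.7, 26.8 and 25.8 CPM in mixotrophic and 35.3, 56.6 and 63.2 CPM in normal libraries (-0.93 ± 0.233, adjusted p = 0.0316; -1.21 over 4; adjusted p = 0.0606 with the block). Normal replicate 1 was the lowest normal library in both, and the component of g15781, of 10 transcripts, changed by -1.72 (adjusted p = 0.0194). The highest of the family in CPM, g3604, was not called (0.06 ± 0.13, adjusted p = 0.802; -0.04 over 4, adjusted p = 0.731).

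The PPP phosphatases act as catalytic chains held by regulatory subunits, and those of PP2A rose in part. The 55 kDa regulatory B subunit, g283, had 157, 154 and 154 CPM in mixotrophic and 80.2, 60.4 and 65.9 CPM in normal libraries (1.17 ± 0.134, adjusted p = 0.00307; 1.25 over 4). A PP2A catalytic chain, g8126, had 66.6, 66.8 and 74.6 CPM in mixotrophic and 44.9, 31.7 and 32.8 CPM in normal libraries (0.92 ± 0.169, adjusted p = 0.0121; 1.11 over 4). A subunit of the other B type, the B′ eta-like g13740, had 140, 136 and 134 CPM in mixotrophic and 175, 220 and 195 CPM in normal libraries (-0.53 ± 0.117, adjusted p = 0.0224; -0.64 over 4; adjusted p = 0.0725 with the block).

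Those 3 were the members called among 12, and none overlapped between the conditions. The component of g283 changed by 0.72 (adjusted p = 0.013), and that of g8126 was not called (0.27, adjusted p = 0.0961). The PPP member highest in CPM, the BSU1-like g13867, had 306, 298 and 288 CPM in mixotrophic and 363, 279 and 298 CPM in normal libraries (-0.08 ± 0.125, adjusted p = 0.719, and adjusted p = 0.98 over 4).

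Of the tyrosine and dual-specificity phosphatases, 2 of 8 were called higher and none lower. Both were copies of MKP1, which switches off MAP kinases, on 1 component. Transcript g10590 had 82.3, 79.4 and 86.9 CPM in mixotrophic and 43.8, 40.8 and 38.7 CPM in normal libraries (1.01 ± 0.107, adjusted p = 0.00248; 1.04 over 4). Transcript g10589 had 44, 38.8 and 40.9 CPM in mixotrophic and 21.8, 17.1 and 20.6 CPM in normal libraries (1.05 ± 0.142, adjusted p = 0.00473; 1.04 over 4). No library crossed the gap between the conditions in either.

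The tyrosine phosphatase PTP1, g4327, was the highest of that family in CPM and was not called, with 113, 109 and 106 CPM in mixotrophic and 151, 97.5 and 92.7 CPM in normal libraries (-0.06 ± 0.208, adjusted p = 0.888; 0.16 over 4, adjusted p = 0.158). None of the 6 calcineurin-like metallophosphoesterases was called by edgeR or DESeq2 or had an unadjusted p under 0.05 in edgeR, and the highest in CPM, g1820, gave -0.19 ± 0.166 (adjusted p = 0.45; -0.32 over 4, adjusted p = 0.105).

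Protein repair enzymes restore isoaspartate and oxidised methionine residues that form in ageing proteins. Of 8 members, 1 was called higher and 2 lower. The isoaspartyl methyltransferase g3890, which matches PIMT2, had 77.6, 78.6 and 68.7 CPM in mixotrophic and 145, 180 and 165 CPM in normal libraries (-1.12 ± 0.127, adjusted p = 0.00294; -1.24 over 4), and its near copy g3889 gave -1.17 ± 0.104 (adjusted p = 0.00158; -1.22 over 4). The enzyme matching the other *Arabidopsis* gene, g9786, went the other way, with 27.4, 32.4 and 27.8 CPM in mixotrophic and 16.5, 18.7 and 14.4 CPM in normal libraries (0.82 ± 0.16, adjusted p = 0.0152; 0.86 over 4). The groups did not overlap in any of the 3.

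Enzymes of lipid anchors and glycosylation had 3 of 9 members called higher and none lower, where 13.3% of all transcripts were called higher. Over 4 libraries all 9, which came from 6 components, were called higher, where 28.6% of all transcripts were. The transcript g4125 matches PIG-A, which starts the glycosylphosphatidylinositol (GPI) anchor, and had 39.4, 34.4 and 32.8 CPM in mixotrophic and 18.5, 13.3 and 18.4 CPM in normal libraries (1.08 ± 0.177, adjusted p = 0.00858; 1.04 over 4). The peptidase g11731, of the type that cuts proteins for transfer to the GPI anchor, had 21.8, 21.1 and 20.2 CPM in mixotrophic and 13.2, 6.25 and 6.88 CPM in normal libraries (1.24 ± 0.314, adjusted p = 0.0326; 1.62 over 4). The farnesyltransferase beta subunit g2019, which attaches a prenyl lipid to cysteine, had 42.2, 42.3 and 40.9 CPM in mixotrophic and 28.7, 24.2 and 26.5 CPM in normal libraries (0.66 ± 0.117, adjusted p = 0.0112; 0.69 over 4).

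All 3 were higher in every mixotrophic library, and the component of g11731 was not called (0.88, adjusted p = 0.0737). The nucleotide sugar transporter g11036, the highest of the group in CPM, had 97, 90.4 and 91.1 CPM in mixotrophic and 117, 57.9 and 59 CPM in normal libraries, and was called over 4 libraries only (0.61, adjusted p = 1.37e-05; 0.25 ± 0.295 over 6, adjusted p = 0.599).

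The chaperonin g11013, of the cytosolic type that folds actin and tubulin, had 236, 255 and 231 CPM in mixotrophic and 163, 154 and 156 CPM in normal libraries (0.61 ± 0.0938, adjusted p = 0.00692; 0.63 over 4). The WD40 repeat proteins g1543 and g1542 also rose. Transcript g1543 had 209, 197 and 206 CPM in mixotrophic and 126, 91.2 and 94.1 CPM in normal libraries (0.97 ± 0.153, adjusted p = 0.00747; 1.1 over 4), and g1542 gave 0.93 ± 0.161 (adjusted p = 0.0101; 1.09 over 4). RACK1, g16466, a WD40 scaffold bound to the small ribosomal subunit, had 243, 256 and 246 CPM in mixotrophic and 227, 305 and 265 CPM in normal libraries and was called lower over 4 libraries only (-0.2, adjusted p = 0.0173; -0.1 ± 0.13 over 6, adjusted p = 0.636).

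Among the 18 remaining annotations, 4 were called higher and 4 lower. The PTPLA-like proteins, whose name recalls tyrosine phosphatases but which are known as dehydratases of very long fatty acid synthesis, rose, with g16144 at 15.3, 12.3 and 15.1 CPM in mixotrophic and 6.06, 2.92 and 3.93 CPM in normal libraries (1.7 ± 0.314, adjusted p = 0.0125; 1.94 over 4) and g16145 giving 1.37 ± 0.362 (adjusted p = 0.037; 1.73 over 4). The prenyltransferase of ubiquinone synthesis g11251 had 28.9, 38.8 and 27.5 CPM in mixotrophic and 17.6, 11.2 and 14.4 CPM in normal libraries (1.13 ± 0.231, adjusted p = 0.0173; 1.34 over 4). The pair g4434 and g4435, annotated as unknown proteins, fell, with g4434 at 65.5, 55.5 and 51.9 CPM in mixotrophic and 107, 136 and 131 CPM in normal libraries (-1.11 ± 0.15, adjusted p = 0.00473; -1.33 over 4) and g4435 giving -1.16 ± 0.154 (adjusted p = 0.00454; -1.37 over 4). No overlap between the conditions was seen in these 5.

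Of 99 components with at least 2 tested members, 11 held 1 or more called members that were all higher, 32 held 1 or more that were all lower, and 55 held none. In 1 component members were called in both directions. There the HT1-like g6503 had 160, 144 and 140 CPM in mixotrophic and 100, 113 and 99.3 CPM in normal libraries (0.51 ± 0.111, adjusted p = 0.0213; 0.41 over 4; adjusted p = 0.0752 with the block). Its neighbour g6506 had 22.8, 22.9 and 24.1 CPM in mixotrophic and 48.8, 97.9 and 101 CPM in normal libraries (-1.83 ± 0.296, adjusted p = 0.00834; -2.11 over 4). Both transcripts were chosen with their values known. The change of the whole component was -0.04 (adjusted p = 0.797).

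Kinases and phosphatases that the ontology places elsewhere gave the other genes of protein phosphorylation. Of 88 tested transcripts outside the BIN whose description names a protein kinase or protein phosphatase, 8 (9.09%) were called higher and 11 (12.5%) lower, with a median change of -0.14. Within them the 77 kinases had 8 called higher and 7 lower, and the 11 phosphatases none higher and 4 lower. Over 4 libraries 25 (28.4%) of the 88 were called higher and 30 (34.1%) lower. The share called lower was thus below that of all transcripts over 6 libraries and above it over 4, while that of the members was above it in both.

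In the group kept apart, 5 members were at least 2-fold lower, in CPM with 0.5 added, in replicate 1 of both conditions than in every other library. They summed to 7.54, 47.4 and 67.8 CPM in mixotrophic and to 3.03, 80.4 and 49.8 CPM in normal libraries. Across all transcripts of the series, 939 had this pattern, and they took 0.0879, 1.41 and 1.94% of the counts in mixotrophic libraries and 0.0758, 2.11 and 1.44% in normal libraries. The low values of replicate 1 are what chose these members, and replicates 2 and 3 overlapped between the conditions.

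The RACK1-like g15390 had 1.08, 18.2 and 31.1 CPM in mixotrophic and 0.827, 34.2 and 18.4 CPM in normal libraries. The CIPK12-like g9748 had 1.94, 10.1 and 10.4 CPM in mixotrophic and 1.65, 11.2 and 9.5 CPM in normal libraries, and g9750 of the same component 2.59, 9.09 and 10.1 CPM in mixotrophic and 0.551, 16.7 and 9.18 CPM in normal libraries. The GroES-like g11115 had 1.94, 6.64 and 10.7 CPM in mixotrophic and 0, 11.2 and 8.19 CPM in normal libraries, and its neighbour g11114 0, 3.44 and 5.61 CPM in mixotrophic and 0, 7.08 and 4.59 CPM in normal libraries. None of the 5 was called by edgeR over 6 libraries or over 4, or by DESeq2 over 6, and none had an unadjusted p under 0.05 in edgeR over 6.

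Their descriptions named a match in *Chlamydomonas*, a green alga, in 3 of 5, against 299 of the 322 described members outside the group (92.9%). The source of these reads was not tested. The lowest fold by which replicate 1 lay under another library was 2.92 within the group, in g11115. Just outside it was the CIPK6-like g10711 at 1.85, with 37.9, 73.5 and 102 CPM in mixotrophic and 2.48, 98.7 and 70.8 CPM in normal libraries (0.32 ± 1.03, adjusted p = 0.882; 0.04 over 4, adjusted p = 0.833). Leaving out all transcripts of the group from the table gave 36 members called higher and 87 lower.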

How the data were processed

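The deposited table holds whole-number counts of reads per transcript, unscaled. Per the paper's methods the authors assembled the reads with Trinity, predicted coding transcripts with AUGUSTUS, aligned with Subread and counted with featureCounts at its defaults. The submitters' processing notes name BWA and DESeq2. Other deposited tables hold the authors' own differential expression and enrichment results and were not used here. How reads shared by near-identical transcripts were divided is not given in the sources used here.

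Counts of all 6 libraries were tested with edgeR 4.0.16 in R 4.3.3, using filterByExpr (minimum count 10), TMM scaling, non-robust glmQLFit and a two-sided glmQLFTest with no covariate. A standard error is the absolute log2 fold change over the square root of F. CPM used the TMM-scaled total. Libraries were grouped by their labels. The study describes independent biological triplicates, and the labels number replicates without saying how they were separated.

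Pairing of the conditions by replicate number was checked by the correlation of same-numbered libraries in their deviations from the condition means. It was 0.703, 0.625 and 0.544 over all transcripts tested, and 0.12, 0.0484 and 0.0335 without those low in replicate 1. Over all transcripts tested, libraries of unlike number gave 0.514 and 0.683 between replicates 2 and 3. Where 1 of them was replicate 1 they gave -0.717 to -0.579. These correlations thus set replicate 1 apart and do not show pairing by number. The replicate block is given where it changed a call.

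Members and lists were chosen with earlier results of these data known. Families follow the deposited descriptions. Named members are the 10 strongest rises and 10 strongest falls among called members without overlap and with mean log2 CPM of 2 or more. Also named are up to 2 higher and 2 lower called members per family by adjusted p, and the member highest in mean CPM per family. So are every SnRK1, SnRK2, CIPK and casein kinase 2 member and TAP38/PPH1. No phototropin and no other thylakoid kinase or phosphatase was on this list of matches. The last are the 5 members low in replicate 1 that are highest in CPM. Others are marked as named with their values seen. Alternatives were DESeq2 1.42.0, upper quartile or RLE scaling, no filter, a filter of 10 counts per library, a fold change threshold, the replicate block, replicates 2 and 3 only, each library left out, counts per component, and the table without transcripts low in replicate 1.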

Additional observations from a re-analysis of the deposited data

How the results depend on the processing

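The count of members called higher depended most on normal replicate 1. That of members called lower fell from 83 to 39, 34 or 30 without mixotrophic replicate 1, 2 or 3, and rose to 127 without normal replicate 1. Over replicates 2 and 3 only, 102 members were called higher and 131 lower, with 65 and 92 kinases, 11 and 21 phosphatases and 21 other annotations higher. Leaving out each library in turn gave 15 to 98 members called higher and 30 to 127 lower, 9 to 62 kinases higher and 23 to 87 lower, 3 to 10 phosphatases higher and 0 to 21 lower, and 3 to 21 other annotations higher and 5 to 9 lower, and the highest number came each time without normal replicate 1. The 0 phosphatases called lower were found by edgeR without mixotrophic replicate 3, where 13 were lower at an unadjusted p under 0.05. With the replicate block, 4 phosphatases were called lower, and 25 members higher and 58 lower. Summed per component, 18 components of members were called higher and 52 lower, with 6 and 34 for kinases and 7 other annotations higher. Asking also for a log2 change of 1 or more in size left 13 members higher and 40 lower, with 5 and 32 kinases, 3 and 2 phosphatases and 5 other annotations higher. Scaling, filters, DESeq2 and leaving out the transcripts low in replicate 1 kept all of these counts within 1.5 times. Of 94 named members, 3 had the opposite sign when counts were summed per component, g11400 at -0.42 and g17428 and g17429 at 0.38. The uncalled g4327 ran from -0.19 to 0.17 over the libraries left out in turn, and was positive without normal replicate 1. Other uncalled members changed sign as well, such as g12040, which ran from -0.27 to 0.11. The replicate block ended the calls of 13 named members, and summing counts per component those of 7. Leaving out mixotrophic replicate 1, 2 or 3 ended 26, 28 or 32 of the 60 calls of named members. Leaving out normal replicate 2 or 3 ended 15 or 18. Leaving out normal replicate 1 ended none and added 12, and 1 more with the sign reversed. Depth limits the members under about 10 CPM, whose counts per library are few.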
